A study of Mus musculus with 2 samples.

Results

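The 10 genes described here, Ifit1, Ifit3, Ifit3b, Isg15, Rsad2, Oasl2, Usp18, Zbp1, Apol9a and Mndal, are effectors and sensors of the type I interferon response. They were taken by symbol from the 32285 genes of the deposited count table, and all 10 had UMIs (unique molecular identifiers, each counting 1 captured RNA molecule). They were chosen by their levels in the groups below, that is, on the CPM values that this text reports, so those levels and the number of members that differ describe the choice and support nothing further. The cells were B16F10 mouse melanoma cells, sorted as GFP+CD45-DAPI-, taken from lungs of WT hosts and from lungs and knee bones of Prf1-/- hosts. Prf1 codes for perforin, with which cytotoxic lymphocytes open pores in target cells. Digestion at 37 °C took 20 min for lung tumours and 30 min for the crushed knees, so site and digestion went together. Each source carried 1 hashtag antibody and all were pooled in 1 droplet run, which gave 1 RNA library and 1 library of hashtags. A condition is thus a single hashtag group with no replicate. The sources used here do not give its number of mice, and no test was possible.

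Type I interferons signal through the receptor chains encoded by Ifnar1 and Ifnar2 to a transcription factor complex that contains STAT2 and IRF9 and binds interferon-stimulated response elements (ISREs) beside its target genes. The targets include proteins that bind foreign RNA, modify other proteins, sense nucleic acids or shut the signal off again, and tumour cells can make them in answer to interferon from infiltrating immune cells. Interferon-gamma acts mainly at other elements, called GAS, but also raises many of the same genes.

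After a filter of at least 1000 genes and at most 15% mitochondrial UMIs, 1227 cells were assigned to WT lung, 1520 to Prf1-/- lung and 385 to Prf1-/- bone. Their totals were 3865546, 4726709 and 1299480 UMIs, with medians of 2909, 2826.5 and 3107 UMIs per cell. A further 6270 cells with a median of 2418 UMIs had barcodes that the hashtag table did not list, so their source is not known. Of the RNA barcodes, 11757 of 15961 (73.7%) were of that kind before the filter. The melanoma label held: 8 of 8 markers such as Pmel and Dct were detected in each group, at a summed level of 12994 UMIs per 1000000 (CPM) for WT lung, 13287 for Prf1-/- lung, 10125 for bone and 11884 for the unlisted cells. All 8 T and NK cell markers were at 0 in the 3 hashtag groups. Of 5 plasmacytoid dendritic cell markers Siglech was at 0 in every group, while Bst2 and Tcf4 had UMIs in many cells. Alveolar and airway epithelial markers stood at 201 CPM in WT lung, with 41.4% of those UMIs in 1 cell, against 13.3 in Prf1-/- lung and 19.2 in bone. Of 8 myeloid markers 5, 5 and 4 were at 0 in these groups, and their sum was 20.7 CPM for WT lung, with 32.5% of it in 1 cell, 4.65 for Prf1-/- lung and 5.39 for bone. Cells holding a UMI of the epithelial, myeloid, T and NK, B cell or neutrophil markers were then left out. The summed member ratio of Prf1-/- lung over WT lung was 0.607 without these cells, against 0.597 with them. Every interval given is a 95% one that covers counting error alone, not the spread between animals.

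RefSeq promoter sequences (build GRCm38.p6, 250 bases upstream of each listed start) were matched for 8 of the 10 genes, leaving out Usp18 and Zbp1. The ISRE core, spelled GAAA, any 2 bases, GAAA, or on the other strand TTTC, any 2 bases, TTTC, was present in 7 of these 8, against 3.46% of the 27025 genes in the table. Oasl2 had no match in its window. The GAS core, TTCNNNGAA, which reads the same on both strands, was present in 0 of the 8, against 8.13% of all genes. A match is a description of the letters, and no match says only that they are not in this window. The stretches below, on the strand of each gene with the ISRE core in capitals, are shown because most of the members held this core, and only it and the GAS core were searched.
Ifit1, chr19:34640776-34640821, plus strand: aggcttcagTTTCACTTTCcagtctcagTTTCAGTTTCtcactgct
Ifit3, chr19:34583372-34583417, plus strand: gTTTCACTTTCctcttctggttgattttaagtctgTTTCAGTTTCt
Ifit3b, chr19:34607768-34607813, plus strand: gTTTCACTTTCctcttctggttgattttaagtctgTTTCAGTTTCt
Isg15, chr4:156200863-156200908, minus strand: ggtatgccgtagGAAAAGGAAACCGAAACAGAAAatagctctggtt
Rsad2, chr12:26456545-26456590, minus strand: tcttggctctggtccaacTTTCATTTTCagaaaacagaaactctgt
Apol9a, chr15:77411109-77411154, minus strand: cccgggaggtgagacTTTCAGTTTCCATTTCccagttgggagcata
Mndal, chr1:173880196-173880241, minus strand: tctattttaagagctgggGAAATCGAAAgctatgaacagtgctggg
The 3 Ifit genes and Apol9a each held 2 matches and Isg15 held 3 that overlap, while Rsad2 held 1 and Mndal 1 at each of its 2 listed starts. Ifit3 and Ifit3b showed the same letters across this stretch, and their upstream windows were identical at 86.2% of 218 aligned bases. Apol9a and its neighbour Apol9b were identical at 100% of 231 bases, and Mndal and Ifi203 at 71.5% of 239. The listed starts of Ifit3, Ifit3b and Mndal lie inside the annotated span of the gene, so other transcripts may begin further upstream. Transcript sequences were not compared. If those of Ifit3 and Ifit3b, of Apol9a and Apol9b, or of Mndal and Ifi203 resemble each other, reads could have been split between them or not counted. Their separate levels are therefore uncertain.

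The IFIT genes encode interferon-induced proteins that bind foreign RNA, and the 3 members lie close together on chromosome 19. Ifit1 (ENSMUSG00000034459, chr19:34640889-34650009) stood at 91.1 CPM (81.8 to 101) in WT lung, 60.5 (53.7 to 67.9) in Prf1-/- lung, 55.4 (43.4 to 69.8) in Prf1-/- bone and 63.9 (60.1 to 67.9) in the unlisted cells. WT lung was highest, and the others overlapped within counting error. Ifit3 (ENSMUSG00000074896, chr19:34583119-34588982) stood at 187 CPM (173 to 201) in WT lung, 102 (93.3 to 112) in Prf1-/- lung, 104 (87.1 to 123) in bone and 105 (99.98 to 110) in the unlisted cells. Again WT lung stood alone above the others, which could not be ordered. Ifit3b (ENSMUSG00000062488, chr19:34607530-34613403) stood at 39.1 CPM (33.1 to 45.8) in WT lung, 25.2 (20.9 to 30.1) in Prf1-/- lung, 36.9 (27.2 to 49.0) in bone and 25.6 (23.3 to 28.2) in the unlisted cells. Here the interval of bone overlapped those of all other groups.

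Isg15 encodes a ubiquitin-like protein that is attached to other proteins, and Usp18 the protease that removes it and that also dampens signalling at the receptor. Isg15 (ENSMUSG00000035692, chr4:156199424-156200818) stood at 85.1 CPM (76.2 to 94.8) in WT lung, 54.6 (48.1 to 61.7) in Prf1-/- lung, 52.3 (40.6 to 66.3) in bone and 130 (125 to 136) in the unlisted cells. It was the one member that was highest where no hashtag was listed. Usp18 (ENSMUSG00000030107, chr6:121245906-121270917) stood at 70.6 CPM (62.5 to 79.5) in WT lung, 47.6 (41.6 to 54.2) in Prf1-/- lung, 45.4 (34.6 to 58.6) in bone and 53.4 (49.9 to 57.1) in the unlisted cells. WT lung was highest and the others overlapped.

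Rsad2 encodes viperin, an antiviral enzyme that makes a modified nucleotide, and Oasl2 an oligoadenylate synthetase-like protein. Rsad2 (ENSMUSG00000020641, chr12:26442743-26456452) stood at 103 CPM (93.3 to 114) in WT lung, 80.2 (72.3 to 88.7) in Prf1-/- lung, 94.7 (78.7 to 113) in bone and 74.4 (70.3 to 78.7) in the unlisted cells. Its highest level was 1.39-fold its lowest, the narrowest range of the 10. Oasl2 (ENSMUSG00000029561, chr5:114896926-114912245) was the member with the fewest UMIs and stood at 24.8 CPM (20.1 to 30.3) in WT lung, 9.73 (7.13 to 13.0) in Prf1-/- lung, 15.4 (9.40 to 23.8) in bone and 12.5 (10.9 to 14.3) in the unlisted cells. Bone rested on 20 UMIs and overlapped every other group.

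Zbp1 encodes a sensor of Z-form nucleic acids that can start inflammatory cell death through RIPK3, Mndal a nuclear protein of the interferon-inducible PYHIN family, and Apol9a an apolipoprotein L family member of the mouse. Zbp1 (ENSMUSG00000027514, chr2:173206612-173218959) stood at 57.9 CPM (50.6 to 66.1) in WT lung, 27.5 (23.0 to 32.7) in Prf1-/- lung, 56.9 (44.7 to 71.5) in bone and 24.9 (22.5 to 27.4) in the unlisted cells. WT lung and bone could not be told apart, and both lay above the other two groups. Apol9a (ENSMUSG00000057346, chr15:77403789-77411080) also had WT lung and bone above the others, at 72.4 CPM (64.2 to 81.4) in WT lung, 33.6 (28.6 to 39.3) in Prf1-/- lung, 60.8 (48.1 to 75.8) in bone and 37.3 (34.4 to 40.4) in the unlisted cells. Mndal (ENSMUSG00000090272, chr1:173857215-173880382) was the one member highest in bone, at 69.3 CPM (55.7 to 85.1) against 43.2 (36.9 to 50.3) in WT lung, 21.2 (17.2 to 25.7) in Prf1-/- lung and 25.03 (22.7 to 27.6) in the unlisted cells. The 10 members summed to 774 CPM in WT lung, 462 in Prf1-/- lung, 591 in bone and 552 in the unlisted cells.

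**Figure D1:**
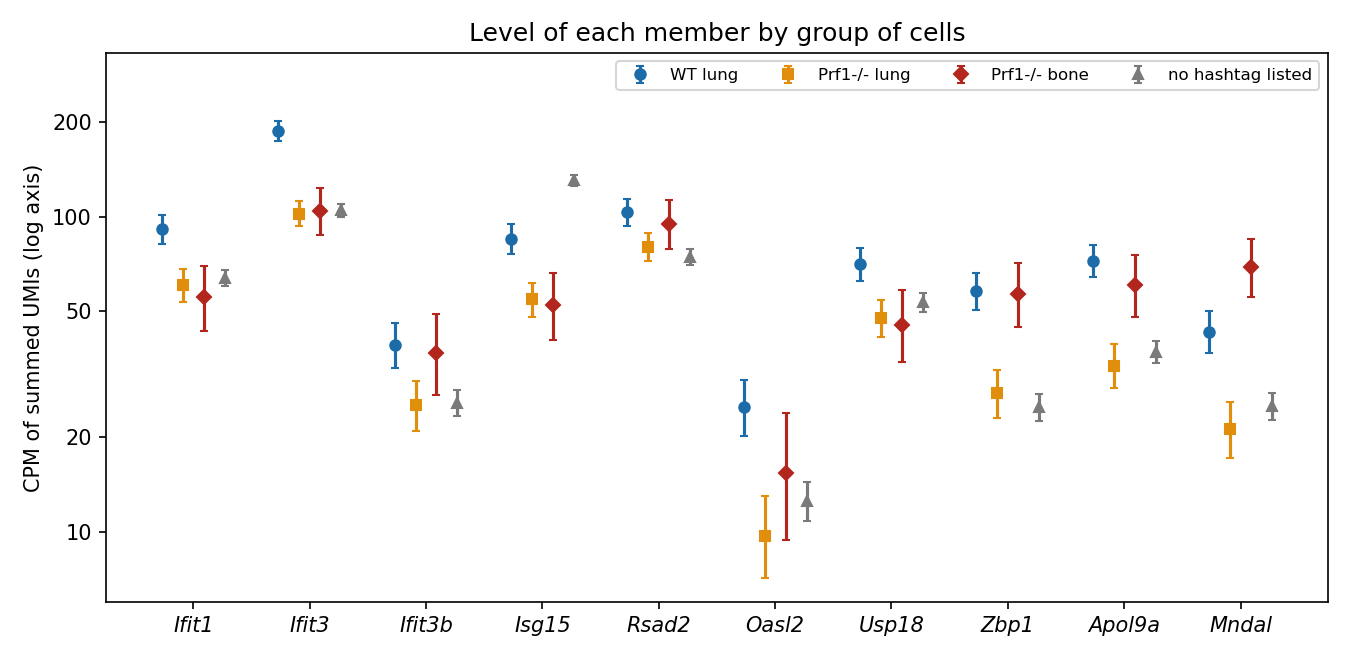
Level of each member in CPM of summed UMIs (log axis) in WT lung (circles), Prf1-/- lung (squares), Prf1-/- bone (diamonds) and cells with no hashtag listed (triangles), with exact 95% Poisson intervals for counting error. Isg15 is highest in the unlisted cells at 130 CPM, and in bone Zbp1, Apol9a and Mndal lie near or above WT lung while Ifit1, Ifit3, Isg15 and Usp18 lie near Prf1-/- lung.

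The comparison of Prf1-/- lung with WT lung asks what differs in melanoma of the same organ when the host lacks perforin. All 10 members were lower in Prf1-/- lung, where 3808 of 7748 measured genes (mean of at least 10 CPM) were lower by any amount. The ratio of the sum was 0.597 (0.565 to 0.631). Past 1.5-fold, 8 members were lower and 0 higher, beside 1.11% of all measured genes lower and 0.71% higher. The widest gaps were those of Oasl2, with a ratio of 0.392 (0.270 to 0.563), Apol9a with 0.464 (0.380 to 0.566), Zbp1 with 0.475 (0.379 to 0.592) and Mndal with 0.490 (0.378 to 0.631). Rsad2 had the ratio nearest to 1, at 0.777 (0.673 to 0.896). Around the threshold, Ifit1 was 1.505-fold lower and counted, and Usp18 was 1.48-fold lower and did not. The median log2 ratio was -0.75 over the members and 0.00 over all measured genes. With hashtags called by HTODemux the number past 1.5-fold was 5, and with cells of at least 2000 genes, which leaves 126 WT lung and 145 Prf1-/- lung cells, it was 4 and Rsad2 turned, to a ratio of 1.28.

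Prf1-/- bone was compared with Prf1-/- lung to set the bone against the lung in hosts of 1 genotype. The members split. Mndal was 3.27-fold (2.43 to 4.396) higher in bone, Zbp1 2.07-fold (1.53 to 2.78) and Apol9a 1.81-fold (1.36 to 2.38). Oasl2 was also past 1.5-fold, at 1.58 (0.886 to 2.73), but its interval included 1. Ifit3b stood just short of it, at 1.47 (1.03 to 2.07). In contrast, the ratios of Ifit1 at 0.916 (0.697 to 1.19), Ifit3 at 1.02 (0.834 to 1.23), Isg15 at 0.959 (0.723 to 1.26), Usp18 at 0.954 (0.704 to 1.28) and Rsad2 at 1.18 (0.955 to 1.45) had intervals that included 1. The count past 1.5-fold was 4 higher and 0 lower, beside 3.81% and 7.39% of 7695 measured genes. The sum was 1.28-fold (1.18 to 1.39) higher in bone. That direction turned in cells with at least 2000 genes, where the sum was 0.702 of that in Prf1-/- lung over 47 bone cells and 145 lung cells, with Mndal at 4.50 and Apol9a at 1.81. Zbp1 at 0.896, Oasl2 at 0.291, Ifit3b at 0.932, Rsad2 at 0.462 and Ifit3 at 0.336 were then below 1, where each had been above it.

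The same bone cells were then set against WT lung, so both genotype and site differ, and the groups are shared with the comparisons above. The sum was 0.764 (0.704 to 0.827) of that in WT lung. Of the members 5 were lower past 1.5-fold, beside 8.04% of 7707 measured genes, namely Ifit3 at a ratio of 0.557 (0.460 to 0.670), Ifit1 at 0.608 (0.465 to 0.786), Isg15 at 0.615 (0.466 to 0.8004), Oasl2 at 0.620 (0.362 to 1.01) and Usp18 at 0.643 (0.477 to 0.855). Mndal alone was higher past it, at 1.60-fold (1.23 to 2.08), beside 3.79% of genes. Zbp1 had a ratio of 0.983 (0.745 to 1.28) and Apol9a one of 0.839 (0.645 to 1.08). Depth touched this count: with every cell thinned to 1500 UMIs 3 members were lower past 1.5-fold, and without the 5% of deepest cells also 3.

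**Figure D2:**
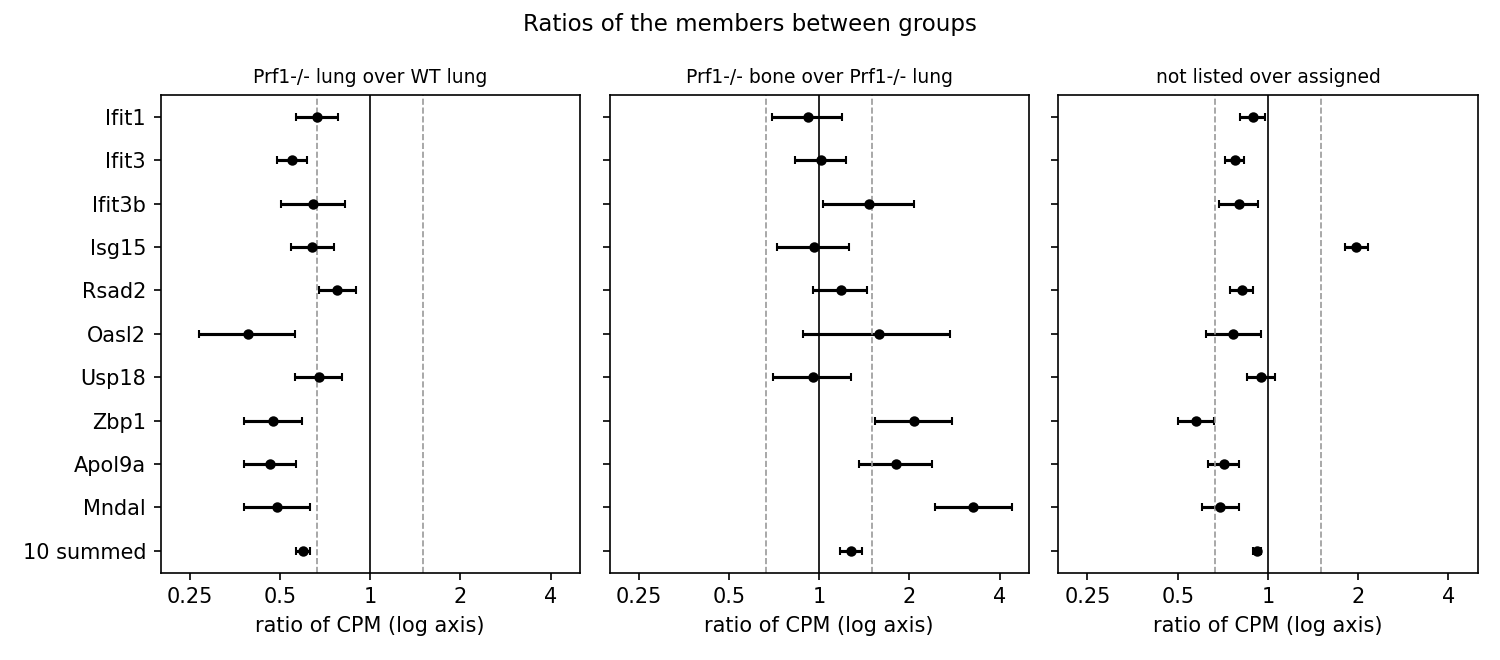
Ratio of CPM (log axis) for each member and for the 10 summed, in Prf1-/- lung over WT lung, Prf1-/- bone over Prf1-/- lung, and cells with no hashtag listed over all hashtag-assigned cells. Bars are exact 95% intervals for counting error, the solid line is a ratio of 1 and the dashed lines are 1.5-fold in either direction; Mndal reaches 3.27 in the middle panel and Isg15 stands alone at 1.97 in the right panel.

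Near copies and family mates of the members followed them in part. Apol9b stood at 50.4 CPM for WT lung, 29.4 for Prf1-/- lung and 55.4 in bone, so it was lowest in Prf1-/- lung as Apol9a was. Ifi203, a PYHIN gene beside Mndal, stood at 46.6, 24.96 and 57.7 CPM in the same groups. Ifi213, also of that family, was 2.08-fold (1.14 to 3.70) higher in bone than in Prf1-/- lung. Ifit2, by contrast, stood at 49.4, 31.5 and 30.0 CPM, so in bone it lay at the level of Prf1-/- lung as Ifit1 and Ifit3 did. Oasl1 stood at 13.5 CPM for WT lung and 13.3 for Prf1-/- lung, with a ratio of 0.991 (0.675 to 1.46), where Oasl2 had 0.392. In bone Oasl1 stood at 8.46 CPM, 0.635 (0.302 to 1.22) of Prf1-/- lung, with an interval that included 1. Of 6 measured genes of this list, which holds Ifit3b too, 3 were higher past 1.5-fold in bone than in Prf1-/- lung and 1 lower. Over all measured genes these shares were 3.81% and 7.39%. Between the lungs 5 genes of this list were measured, so a gene high in bone could enter the bone count through the filter.

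Cells with no hashtag listed, compared with the 3132 assigned cells, showed a gap for Isg15 alone among the members in the upward direction. Isg15 stood at 130 CPM against 66.2, a ratio of 1.97 (1.80 to 2.15). It was 1 of 7 genes higher past 1.5-fold among 7738 measured, which is 0.0905%; the other six were Cdca7, Trib3, Plekho1, Slc7a5, Cmtm7 and Atxn7l3. Each of the other members was lower in the unlisted cells (Ifit1, Oasl2 and Usp18 not so with at least 2000 genes), from Usp18 at a ratio of 0.948 (0.852 to 1.06) down to Zbp1 at 0.574 (0.5003 to 0.659), the only one lower past 1.5-fold, beside 0.207% of genes. For each UMI of Ifit3 there were 1.24 UMIs of Isg15 in the unlisted cells and 0.489 in the assigned cells. Cells with at least 5 Isg15 UMIs made up 1.13% (0.885 to 1.43) of the unlisted cells, 0.489% (0.180 to 1.06) of WT lung, 0.263% (0.0717 to 0.672) of Prf1-/- lung and 0.260% (0.00658 to 1.44) of bone. Cells were also put in 7 clusters built without the genes of 7 fixed pathway lists. The Isg15 ratio was above 1 in each, from 1.53 (1.22 to 1.94) in cluster 2 to 5.31 (2.00 to 20.0) in cluster 6, the smallest. Ifit3 in the same clusters ranged from 0.645 to 3.01.

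Hashtag binding itself went with the members. Mouse hashtag antibodies of this kind are known to bind CD45 and MHC class I, and the cells had been sorted as CD45-negative. The MHC class I gene H2-K1 stood at 209 CPM in the unlisted cells and 392 in the assigned cells. When each group was divided at its median hashtag total, the 10 members summed to 620 CPM below it and 914 above it in WT lung, 374 and 540 for Prf1-/- lung, and 477 and 696 for bone. H2-K1 stood at 291 and 545, 208 and 447, and 359 and 640 CPM in the same cells. The hashtag table listed no barcode with fewer than 503 counts, so a cell below that could not have been assigned. Of its 6208 barcodes 2004 were absent from the RNA counts. The hashtag counts of the unlisted cells are not known. Why they were not listed, and the part of this selection in the differences between groups, was not tested.

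To compare shares of positive cells, every cell was thinned to 1500 UMIs. At that depth any member was detected in 42.9% (40.1 to 45.7) of WT lung cells, 29.95% (27.7 to 32.3) of Prf1-/- lung cells, 41.3% (36.3 to 46.4) of bone cells and 32.2% (31.1 to 33.4) of unlisted cells. Without thinning the shares were 58.8%, 44.1%, 57.7% and 42.6%. The most often detected member in WT lung was Ifit3, with 17.3% (15.2 to 19.5) of cells, against 9.41% (7.99 to 10.995) in Prf1-/- lung and 8.57% (5.97 to 11.8) in bone. In bone Rsad2 had 10.9% (7.98 to 14.5) and Mndal 10.4% (7.53 to 13.9), which cannot be ordered and change places without thinning. Mndal had 5.70% (4.47 to 7.15) for WT lung and 3.36% (2.51 to 4.39) in Prf1-/- lung. In the unlisted cells it was Isg15, with 12.5% (11.7 to 13.4). As a measure of free RNA, 78 barcodes rich in lung epithelial markers, with a median of 581 UMIs, had any member in 14.1% (7.26 to 23.8). Isg15 was found in 5.13% (1.41 to 12.6) of them, and Oasl2, Zbp1 and Mndal in 0 of 78, for which 3 barcodes would be 3.85% and the exact upper bound is 4.62%. Depths differed, and epithelial cells may express these genes. The shares were not compared at 1 depth, so how much of the any-member shares is background is not known. Low shares in Prf1-/- lung, such as 1.38% (0.858 to 2.11) for Oasl2 and 3.36% (2.51 to 4.39) for Zbp1 and Mndal, cannot be set apart from background by the epithelial barcodes.

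The members were found together in the same cells. At least 4 members were detected in 6.03% (4.76 to 7.51) of WT lung cells, 2.57% (1.83 to 3.49) of Prf1-/- lung cells, 4.16% (2.39 to 6.66) of bone cells and 3.61% (3.16 to 4.10) of unlisted cells. Were the members spread over cells independently, the product of their separate shares would give 0.690%, 0.101%, 0.357% and 0.156%. The 10% of cells richest in member UMIs held 58.8% of them in WT lung, 66.7% in Prf1-/- lung, 63.0% in bone and 68.4% in the unlisted cells. Most cells of each group therefore had 0 or 1 member detected, and a minority carried the bulk of the level.

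**Figure D3:**
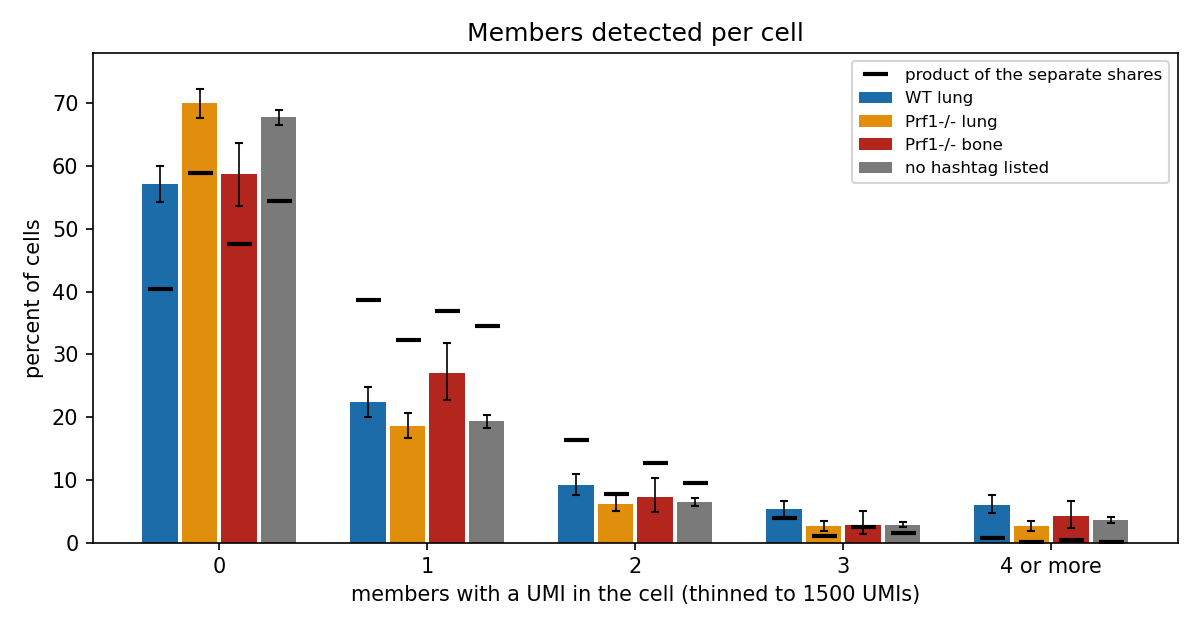
Percent of cells (vertical axis) with 0, 1, 2, 3 or at least 4 of the 10 members detected after thinning to 1500 UMIs, by group, with exact 95% binomial intervals; black dashes give the product of the members' separate shares. At 4 or more members the bars stand at 6.03%, 2.57%, 4.16% and 3.61%, each above its dash.

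Over the assigned cells deep enough to be thinned, 3131 in number, Pearson's r between member pairs ran from 0.053 to 0.444 with a median of 0.138, and all 45 pairs were found together in more cells than the product of their shares. These cells pool groups whose shares differ, and within groups that held for 44 pairs of WT lung, 44 of Prf1-/- lung and 40 of bone. These cells share 1 library, and counts of this sparsity hold r near 0, so the values are a description. The tightest block was formed by Ifit1, Ifit3, Ifit3b and Rsad2: Ifit1 with Ifit3 had r of 0.444 and were both present in 112 cells, where the product of shares gives 27.5, and Ifit1 with Rsad2 had 0.420. Ifit3 with Ifit3b had 0.360, a pair whose reads may be shared. Isg15 had 0.307 with Ifit3. By r, Zbp1, Mndal and Oasl2 lay at the edge, with no r above 0.178 among their pairs. Low detection holds r down, and Oasl2 was found in 2.20% of these cells. Cells with both genes, over the product of shares, gave another order. That ratio ran from 2.22 with Usp18 to 4.22 with Ifit3b for Oasl2. In the block it ran from 3.11 for Ifit3 with Rsad2 to 5.90 for Ifit1 with Ifit3b. Ranked by r with the sum of the other 9 members among 7754 genes, Ifit3 came 1st at 0.497 and Ifit1 next at 0.447, while Zbp1 at 0.194, Mndal at 0.194 and Oasl2 at 0.181 came 32nd, 33rd and 38th. Within bone the order was led by Rsad2 at 0.519 and Ifit3 at 0.482, and Mndal at 0.165, Oasl2 at 0.160, Apol9a at 0.134 and Zbp1 at 0.122 came last.

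**Figure D4:**
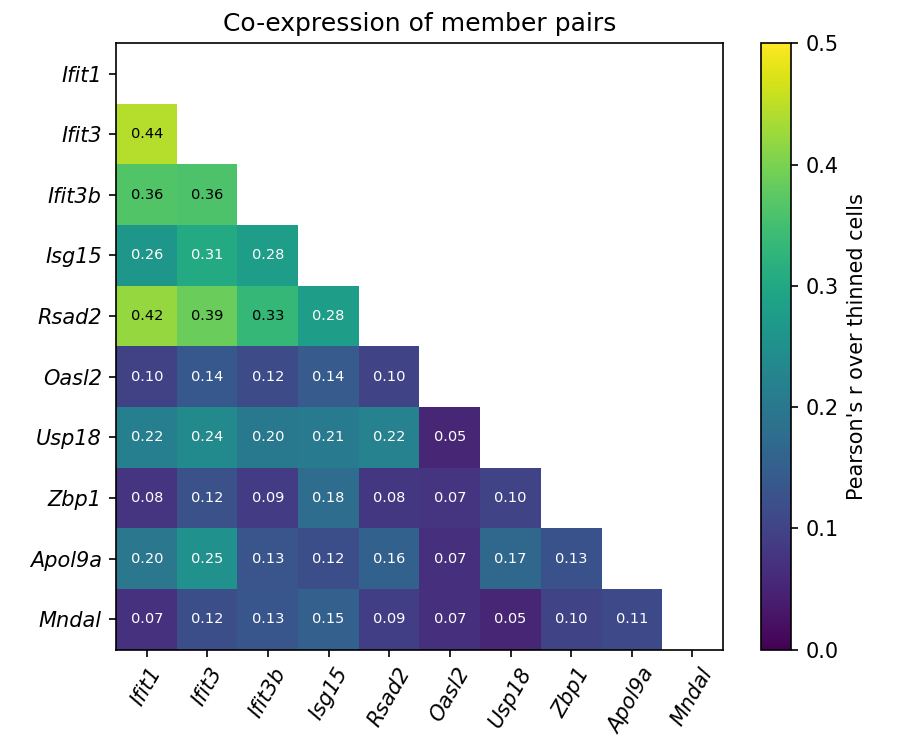
Pearson's r between each pair of members over 3131 hashtag-assigned cells thinned to 1500 UMIs, as a colour scale from 0 to 0.5 with the values printed. Ifit1, Ifit3, Ifit3b, Rsad2 and Isg15 form the bright corner, with 0.44 for Ifit1 and Ifit3, and the rows of Oasl2, Zbp1 and Mndal are darkest.

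Among the genes outside the list with the highest r with the 10 members were Cxcl10 (0.405), a chemokine for T cells, Ifitm3 (0.318), Iigp1 (0.306), Apol9b (0.272), Ifit2 (0.263), Igtp (0.245), Oasl1 (0.237), Bst2 (0.234) and Gbp2 (0.232), over the same cells. The median over all genes was -0.0014. Of these genes Cxcl10, Iigp1, Igtp and Gbp2 were on a fixed list of interferon-gamma-preferring genes. Ifitm3, Apol9b, Ifit2, Oasl1 and Bst2 were on one of other type I interferon-induced genes. Among the members, Ifit3b, Isg15 and Usp18 had a higher r with the sum of the type I list. The other members had a higher r with the gamma list, as Ifit3 with 0.349 against 0.328. Each list was summed in UMIs, so its abundant genes weigh most. Cxcl10, at 318 CPM in the assigned cells, had r of 0.636 with the gamma sum. Ifitm3, at 1101 CPM, had r of 0.703 with the type I sum. Which interferon the members follow was not tested. The order of the most alike genes across groups was not the same from gene to gene. Cxcl10 stood at 361 CPM for WT lung, 297 for Prf1-/- lung and 265 in bone. Iigp1, an immunity-related GTPase gene, stood at 111, 53.9 and 141 CPM. Bst2, which encodes the virion tether tetherin, was 1.22-fold (1.18 to 1.27) higher in the unlisted cells, the same side as Isg15.

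Cells were also divided by whether they held a UMI of 8 genes that answer mainly to interferon-gamma, namely Psmb8, Psmb9, Iigp1, Gbp2, Gbp4, Gbp7, Cd74 and H2-Aa, a choice made with results of these data known. In Prf1-/- lung Zbp1 was found in 10.98% (7.85 to 14.8) of the 337 cells with such a UMI and in 1.18% (0.649 to 1.98) of the 1182 cells without. Rsad2 was found there in 14.2% (10.7 to 18.4) and 6.09% (4.80 to 7.61). In WT lung the same shares were 14.97% (11.8 to 18.6) and 3.18% (2.07 to 4.66) for Zbp1, and 10.7% (7.94 to 13.9) and 7.76% (5.99 to 9.86) for Rsad2. In bone, where 51.7% of cells held such a UMI where WT lung had 35.9% and Prf1-/- lung 22.2%, Mndal was found in 12.1% (7.88 to 17.4) and 8.60% (5.00 to 13.6). Mndal had 10.9% (8.14 to 14.2) and 2.80% (1.76 to 4.21) in WT lung, and 7.12% (4.62 to 10.4) and 2.28% (1.51 to 3.31) in Prf1-/- lung. Each of the 10 members had a larger share in cells with such a UMI, in every group, the unlisted cells included. Some intervals overlap, such as those of Rsad2 in WT lung and of Mndal in bone.

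Across 7 clusters of cells built without the genes of the 7 fixed pathway lists, the lower sum in Prf1-/- lung was uneven. MHC class I genes, B2m and Ccl5 were kept in that step and left out only in a later clustering given below. In cluster 2, led by Cck, Sftpc and Fosb, the sum stood at 332 CPM in Prf1-/- lung and 1122 in WT lung, a ratio of 0.296 (0.238 to 0.365). In cluster 1, led by histone genes, Fbxo5 and Top2a, it stood at 364 and 847, a ratio of 0.429 (0.376 to 0.489). In cluster 0, led by Lgals7, Crip1 and Kcnj13, it stood at 706 and 1121, a ratio of 0.630 (0.576 to 0.689). In cluster 3, where Col1a1 led but also App, Nrp2 and S100a4, it stood at 449 and 490, a ratio of 0.918 (0.803 to 1.05). In cluster 4, led by Ube2c, Pclaf and Hmmr, it stood at 329 and 337, a ratio of 0.977 (0.823 to 1.16). In the small clusters 5 and 6 the sum was also lower in Prf1-/- lung, at 517 CPM (422 to 628) over 67 cells against 912 (685 to 1190) over 21 in cluster 5, and at 43.3 (5.25 to 157) over 20 cells and 2 member UMIs against 459 (276 to 717) over 15 in cluster 6. The intervals of the ratios in clusters 3 and 4 included 1, and those of clusters 0, 1 and 2 did not. Whether the ratio differs between clusters was not tested, since each group is 1 sample. Leaving out the cell with the most member UMIs in each group gave 0.610, 0.400, 0.282, 0.982 and 1.04 for clusters 0 to 4.

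In cluster 2 all 10 members had a ratio below 1, from 0.118 for Ifit3b to 0.573 for Oasl2, and in cluster 1 Rsad2 at 1.02 was the exception. In cluster 4 the members lay on either side of 1, with Isg15 at 1.47, Mndal at 1.71 and Oasl2 at 0.463. Bone cells were found mostly in cluster 2, with 55.8% of them, and cluster 1, with 27.5%, while 10.4% of WT lung and 7.83% of Prf1-/- lung cells were in cluster 2. In cluster 2 the sum in bone was 2.21-fold (1.80 to 2.74) that in Prf1-/- lung, and in cluster 1 it was 1.23-fold (1.03 to 1.47). Without the cell with the most member UMIs in each group these became 2.24 (1.81 to 2.81) and 1.16 (0.953 to 1.40), the latter with an interval that includes 1. Mndal was higher in bone in both, at 3.70-fold and 5.20-fold. Zbp1 was 3.85-fold higher in cluster 2 and had a ratio of 0.883 in cluster 1. Ifit3 had 1.48 and 0.898. The split of the members seen over all cells was not seen in cluster 2, where 0 of the 10 had a ratio below 1. Ifit3b stood there at 7.39, Ifit1 at 3.55, Rsad2 at 2.88 and Usp18, the lowest, at 1.16, over 114 member UMIs in Prf1-/- lung. In cluster 1, 5 members were below 1, with Ifit1 at 0.909, while Ifit3b had 1.77 and Rsad2 1.42. Sftpc and Col1a1, which lead clusters 2 and 3, are epithelial and fibroblast genes, and their part in these ratios was not tested.

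**Figure D5:**
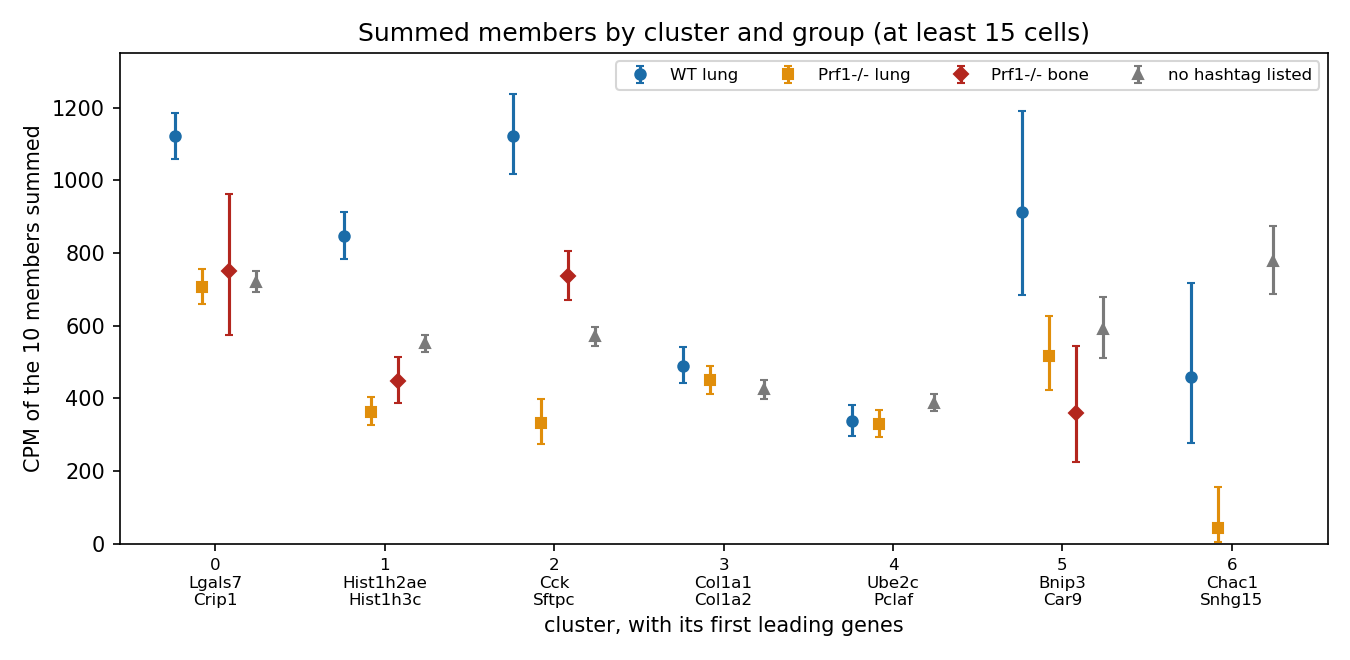
CPM of the 10 members summed (vertical axis) in each cluster, named by number and first leading genes, by group, with exact 95% Poisson intervals; groups with under 15 cells in a cluster are left out. WT lung stands at 1121, 847 and 1122 CPM in clusters 0, 1 and 2 against 706, 364 and 332 in Prf1-/- lung, and the groups meet in clusters 3 and 4.

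Genes upstream of the members were read from fixed lists. Of 20 type I and III interferon ligand genes only Ifnz had a UMI, with 2 in each hashtag group and 4 in the unlisted cells, and Ifnb1 was at 0, under a floor of 3 UMIs that equals 0.776 CPM for WT lung, 0.635 for Prf1-/- lung and 2.31 in bone. Of 16 measured receptor and JAK-STAT genes, 0 were past 1.5-fold between the lungs in either direction, beside 1.11% of all measured genes lower and 0.71% higher. Ifnar1 stood at 19.7 CPM in both lungs and 15.4 in bone, and Ifnar2 at 75.0, 63.7 and 48.5 CPM over WT lung, Prf1-/- lung and bone. Ifngr1, of the gamma receptor, stood at 11.1, 14.6 and 10.8 CPM. Stat2 stood at 15.004, 12.1 and 16.2 CPM, and Irf7, which amplifies the response, at 39.1, 26.7 and 36.2. Irf9, which encodes the DNA-binding partner of STAT2, stood at 34.4, 28.1 and 16.9 CPM, so it was 0.602 (0.365 to 0.949) of Prf1-/- lung in bone. Socs3, a feedback inhibitor of cytokine signalling, had a ratio of 0.457 (0.301 to 0.669) there. Of 15 genes of this list measured in that comparison, 2 were lower past 1.5-fold and 0 higher. Over all measured genes the shares were 7.39% and 3.81%.

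Among 14 measured nucleic acid sensing genes 1, Dhx58, was lower past 1.5-fold in Prf1-/- lung, beside 1.11% of all measured genes, with 7.40 CPM against 14.5 and a ratio of 0.511 (0.325 to 0.794). Eif2ak2, which encodes the RNA-activated kinase PKR, stood at 77.3 CPM for WT lung, 79.8 for Prf1-/- lung and 80.8 in bone, and Ddx58, which encodes the RNA sensor RIG-I, at 73.2, 56.7 and 48.5. Of 33 other type I interferon-induced genes 14 were lower past 1.5-fold in Prf1-/- lung and 0 higher, beside 1.11% and 0.71% of all measured genes. Ifi44 was lowest there, with a ratio of 0.341 (0.223 to 0.511), then Gm4951 with 0.373 (0.244 to 0.559), while the abundant Ifitm3 had 0.773 (0.742 to 0.805) and Ifi27 0.919. In bone against Prf1-/- lung 6 of 31 were higher past 1.5-fold and 1 lower, beside 3.81% and 7.39% of all measured genes, with Gm4951 at 3.54-fold (2.16 to 5.79). Of the interferon-gamma-preferring genes 11 of 16 were lower past 1.5-fold in Prf1-/- lung than in WT lung, beside the same 1.11%, and 16 of 20 were higher past it in bone than in Prf1-/- lung, beside 3.81%. The immunoproteasome gene Psmb8 stood at 160 CPM for WT lung, 77.9 for Prf1-/- lung and 287 in bone, and the MHC class II gene H2-Ab1 at 8.28, 3.81 and 27.7. The filter took the mean of the compared groups, so 20 genes of that list were measured with bone and 16 between the lungs. Genes such as H2-Ab1 passed it only through their level in bone, which raises the bone count and its median. The median log2 ratio of bone over Prf1-/- lung was 1.00 for that list, 0.23 for the other type I list, 0.40 for the members and -0.03 over all measured genes.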

How the data were processed

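The authors deposited UMI counts per gene and barcode and hashtag counts per barcode, from 1 RNA and 1 hashtag library made with 10x 3' version 3 chemistry, per the labels' protocols. Build mm10, Seurat 4.3.0 and Cell Ranger 6.1.2 come from the submitters' processing notes, while the matrix header gives Cell Ranger 6.0.0. The authors' cell annotation was not used here, so groups were rebuilt: a cell took the hashtag with the largest count where that was at least 2 times the next, and 242 filtered cells without one were left out. Doublets were removed only where 2 hashtags met. UMIs were summed per group and divided by the total (CPM). Levels have exact Poisson, ratios exact conditional binomial and shares exact Clopper-Pearson intervals, all at 95% and for counting error only. For counts of 0 the floor was 3 UMIs. Genes with a mean of at least 10 CPM were measured, and 1.5-fold was the size called. The ratio and call step was tested on simulated counts. Clusters were made with scanpy 1.11.5 and leidenalg 0.10.2 without the genes of the 7 pathway lists. All 10 members are named; of each list, the 2 most abundant and the 3 most extreme members per comparison could be named, beside family mates, 8 core pathway genes and the 10 genes most like the members, and H2-K1, the epithelial and cluster genes and the genes called in the unlisted cells were named after their values were seen. The members and lists were chosen with earlier results of these data known. A gene that the naming rule covers is not reported here. Alternatives were hashtag calling at 5 times the next or with HTODemux (Seurat 5.3.0, R 4.3.3), other cell filters, scalings, thinning and folds.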

Additional observations from a re-analysis of the deposited data

Results flagged for a closer look

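Member UMIs were also present in barcodes that no comparison used. In the 242 filtered barcodes with no clear largest hashtag the 10 members summed to 575 CPM (529 to 625), from 561 UMIs at a median of 3695.5 UMIs per barcode. In the 6317 barcodes that failed the gene or mitochondrial filter they summed to 546 CPM (530 to 563), from 4273 UMIs at a median of 1305. Both levels lie between those of Prf1-/- lung and bone, and both are above the limit that a count of 0 allows, 3.08 and 0.383 CPM.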

How the results depend on the processing

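Over 11 other settings, 103 of 110 member ratios in the lung comparison moved by less than their counting interval, 100 of 110 for bone against Prf1-/- lung, 102 of 110 for bone against WT lung and 104 of 110 for unlisted against assigned cells. A minimum of 2000 genes moved the sums most, to 0.756, 0.702, 0.531 and 0.985 in that order, and it leaves 47 bone cells. Ratios then crossed 1 for Oasl2 (0.291), Zbp1 (0.896), Rsad2 (0.462), Ifit3b (0.932) and Ifit3 (0.336) in bone against Prf1-/- lung, Rsad2 (1.28) in the lung comparison, Apol9a (1.11) in bone against WT lung, and Ifit1 (1.16), Oasl2 (1.11) and Usp18 (1.33) in unlisted against assigned cells. Under other settings the members that crossed 1 were ones whose interval already included it: Ifit1, Ifit3, Isg15 and Usp18 in bone against Prf1-/- lung, and Ifit3b, Rsad2 and Zbp1 in bone against WT lung. The lung sum ratio of 0.597 became 0.639 with HTODemux, 0.556 when thinned and 0.508 in clusters 0, 1 and 2, a setting chosen after seeing the data. Bone against Prf1-/- lung, 1.28, became 1.45 with hashtags at 5 times the next, 1.45 as a mean over cells and 1.47 when thinned. Bone against WT lung became 0.831 at 5 times and 0.612 in clusters 0, 1 and 2, and unlisted against assigned 0.874 at 5 times. The 8 members lower in Prf1-/- lung became 4 at a mean of 50 CPM, at 2-fold or at 2000 genes, and 5 with HTODemux. The 4 higher in bone became 0 at 50 CPM and 2 at 2-fold or 2000 genes, with 5 lower in place of 0 at 2000 genes. Against WT lung the 1 higher became 0 at 2-fold or 2000 genes, and the 5 lower became 0 at 2-fold, 3 at 5 times, thinned or without the 5% deepest cells, and 2 as a mean over cells. In unlisted cells 1 higher became 0 at 2-fold, and 1 lower became 0 at 50 CPM or 2-fold, 3 at 5 times, and 2 when thinned or without cells with UMIs of other cell types. The cause was not tested, beyond the smaller number of genes or cells that stricter settings leave. Shares with any member, 42.9%, 29.95%, 41.3% and 32.2%, became 54.1%, 40.8%, 46.6% and 40.6% at 2500 UMIs and 58.8%, 44.1%, 57.7% and 42.6% without thinning, and the median pair correlation of 0.138 became 0.207. Other clusterings, chosen after seeing the data, are given with the observations. No paired analysis was possible because each condition is 1 hashtag group of 1 run. With no replicates, the spread between animals is unknown, and rare members such as Oasl2 rest on as few as 20 UMIs in a group.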

Other observations

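The uneven lung comparison across clusters was looked at again under clusterings chosen after seeing the data. Clustered also without MHC genes, B2m and Ccl5, the clusters that correspond to 0, 1 and 2 had member sum ratios of Prf1-/- lung over WT lung of 0.610 (0.556 to 0.668), 0.399 (0.351 to 0.453) and 0.391 (0.332 to 0.459), and those that correspond to 3 and 4 had 1.07 (0.928 to 1.23) and 0.932 (0.792 to 1.10). At resolution 0.3 the ratios of the large clusters were 0.375, 0.972 and 0.592. At resolution 0.8 they ran from 0.299 to 0.998.

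Slc7a5, an amino acid transporter gene, stood at 42.5 CPM in the unlisted cells and 17.3 in the assigned cells, a ratio of 2.46 (2.08 to 2.92), and Trib3, a stress response gene, at 28.0 and 18.3. Cluster 6, led by Chac1, Snhg15 and Trib3, held 189 cells, of which 80.4% had no hashtag listed. Isg15 stood there at 230 CPM in the unlisted and 43.3 in the assigned cells, a ratio of 5.31 (2.00 to 20.0). Ifit3 was also higher there in the unlisted cells, at 97.8 CPM against 32.5, a ratio of 3.01 (0.947 to 15.3). All members summed to 777 CPM (687 to 875) in its unlisted cells. Their sum was 459 (276 to 717) in WT lung, 43.3 (5.25 to 157) in Prf1-/- lung and 209 (5.30 to 1165) in bone. These sums rested on 19, 2 and 1 member UMIs. The gap in this cluster therefore cannot be called particular to Isg15. The assigned cells of this cluster were few, at 15 of WT lung, 20 of Prf1-/- lung and 2 of bone. A link between these genes and a missing hashtag was not tested.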
